A study of Mus musculus with 4 samples.

Results

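Activity-induced immediate early genes were followed in quadriceps muscle of WT mice and of Mef2dα2 Eko mice, which lack the α2 exon of Mef2d. The 10 genes were the rows of the expected count table with the symbols Fos, Fosb, Junb, Egr1, Egr2, Atf3, Arc, Nr4a1, Nr4a2 and Nr4a3, so they were chosen by name and make up 10 of 51826 rows. All 10 had 1 row each and passed the filter on low counts. Quadriceps was taken from 2 WT and 2 Mef2dα2 Eko mice, all sedentary males of about 20 weeks on a C57BL6/J background, and each mouse gave 1 polyA library. In the Eko mice the exon had been deleted with CRISPR-Cas9 in the germline, so every tissue carried the deletion, and the other mutually exclusive exon of Mef2d, α1, was intact. The study describes the sequenced mice as littermates but not which of them shared a litter, and the labels do not give their founder line. Each mouse is named below by its genotype and the replicate number of its label.

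Immediate early genes are transcribed within minutes of a stimulus, from factors already present in the cell, and their short-lived mRNAs soon disappear. In muscle they respond to contraction, adrenergic signals, stretch and injury, and handling or the time taken to collect a tissue also moves them. Most encode transcription factors: FOS and JUN proteins pair as AP-1, EGR proteins are zinc finger factors, and NR4A proteins are orphan nuclear receptors. MEF2 proteins bind the Nr4a1 promoter in T cells, where calcium signals release them from repressors.

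Library totals were between 72626757 and 85176059 expected counts and overlapped between genotypes. Expression is given as CPM, in which each count was divided by its library's TMM-normalized size, and 3 counts, taken as the floor, correspond to between 0.0348 and 0.0419 CPM. These floors cover counting error only. The genotypes were compared with edgeR's quasi-likelihood test over the 16120 genes that passed its filter on low counts, and a gene was called at a Benjamini-Hochberg adjusted p below 0.05. With 2 mice a group, the smallest p that an exact permutation test allows (two-sided) is 0.333. Mef2d itself had 259 and 227 CPM in WT and 252 and 241 CPM in Eko, but the table holds whole genes, so this level does not check the deleted exon. Summed markers of muscle fibres took 134844 to 142927 CPM in the 4 mice, so fibre RNA made up the bulk of marker RNA in every library. WT 1 stood apart from the other 3 mice: a chi-square of the counts over genes, per degree of freedom, was 119 to 215 for each pair with WT 1 and 35.5 to 42.0 for every other pair. Results for the early genes are therefore also given without WT 1 where it moves them, and 0 of the 10 genes were called without it by edgeR's quasi-likelihood test.

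No early gene was called between the genotypes by edgeR's quasi-likelihood test, and the genes differed widely in how alike the mice of 1 genotype were. Nr4a1 was the most abundant by far and differed little between mice of a genotype, while Fos, Fosb, Egr1 and Nr4a3 differed at least 2-fold between the mice of both genotypes. Nr4a1, Arc and Nr4a2 were below both WT mice in both Eko mice, against 23.0% of genes tested, and 0 members were above both, against 20.8%, so the 3 of 10 members below were near the share of all genes. Of the 10 members, 0 were called by edgeR's quasi-likelihood test, against 0.416% of all genes tested. At an unadjusted p below 0.05 there were 3 members, Arc, Nr4a1 and Nr4a2, against 11.6% of genes tested. DESeq2, the method the study used for this comparison, called Arc and Nr4a1 here, against 2.02% of genes tested. The likelihood ratio test of edgeR called the same pair, against 1.94%, and limma-voom called 0 members.

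**Figure D1:**
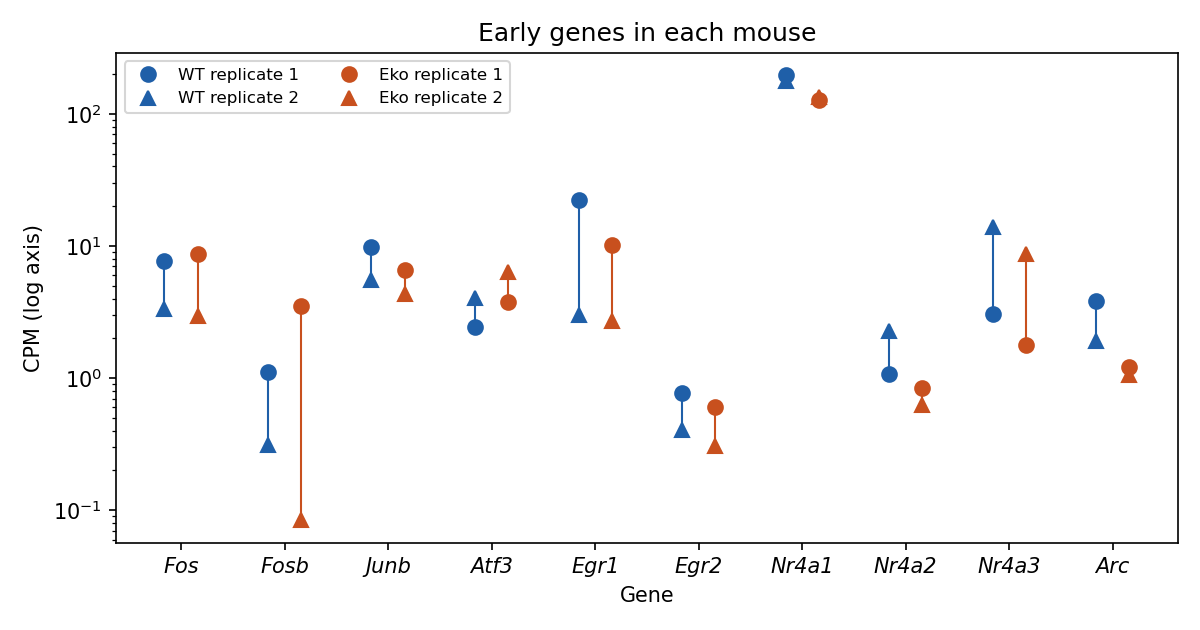
CPM of each early gene on a log axis, with WT mice in blue, Eko mice in orange, circles for replicate 1, triangles for replicate 2 and a line joining the mice of a genotype. The Eko points of Nr4a1, Nr4a2 and Arc lie below both WT points, and the lines of Fosb, Egr1 and Nr4a3 are long in both genotypes.

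Per length of exon, the genes covered a wide range of levels. Nr4a1 averaged 45.2 CPM per kb over the 4 mice, with a range of 36.0 to 55.7 CPM per kb. The next 4 genes were Junb at 2.85, Fos at 2.40, Egr1 at 2.12 and Atf3 at 1.93 CPM per kb. They were followed by Nr4a3 at 1.14, Arc at 0.657 and Nr4a2 at 0.297 CPM per kb, then by Fosb, between 0.0134 and 0.559 in single mice, and Egr2 at 0.154 CPM per kb. The lowest Nr4a1 mouse stood above the highest mouse of every other member. The ranges of every other pair of neighbours in this order overlapped, so neighbours below Nr4a1 were not separated by the spread between mice. Genes farther apart in the order were in part separated, since the lowest Junb mouse, at 1.89 CPM per kb, stood above the highest mouse of Arc, Nr4a2, Fosb and Egr2.

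RefSeq promoter sequences of 8 members were read on GRCm38.p6, each from 250 bases before to 50 bases after a start site, and those of the 3 NR4A genes and of Atf3 are shown because the NR4A family carried the lowest p-value and Atf3 alone held a MEF2 site. Capitals mark TGACG, the core of the cAMP response element (CRE), or its reverse complement CGTCA, and in Atf3 also the MEF2 site. The windows are chr15:101266596-101266895 on the plus strand for Nr4a1, chr2:57123954-57124253 on the minus strand for Nr4a2, chr4:48045055-48045354 on the plus strand for Nr4a3 and chr1:191183284-191183583 on the minus strand for Atf3.
Nr4a1: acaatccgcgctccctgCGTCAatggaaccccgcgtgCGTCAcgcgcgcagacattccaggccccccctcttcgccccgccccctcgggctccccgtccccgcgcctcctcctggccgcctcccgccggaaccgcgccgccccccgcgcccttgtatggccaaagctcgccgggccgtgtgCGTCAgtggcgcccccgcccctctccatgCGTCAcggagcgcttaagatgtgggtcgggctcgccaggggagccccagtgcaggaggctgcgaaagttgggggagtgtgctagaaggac
Nr4a2: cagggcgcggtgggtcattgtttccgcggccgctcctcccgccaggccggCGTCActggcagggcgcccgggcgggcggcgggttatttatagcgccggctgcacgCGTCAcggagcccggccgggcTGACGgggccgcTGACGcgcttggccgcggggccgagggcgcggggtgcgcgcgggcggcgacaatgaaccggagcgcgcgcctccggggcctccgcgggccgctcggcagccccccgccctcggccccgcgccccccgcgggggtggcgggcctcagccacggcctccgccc
Nr4a3: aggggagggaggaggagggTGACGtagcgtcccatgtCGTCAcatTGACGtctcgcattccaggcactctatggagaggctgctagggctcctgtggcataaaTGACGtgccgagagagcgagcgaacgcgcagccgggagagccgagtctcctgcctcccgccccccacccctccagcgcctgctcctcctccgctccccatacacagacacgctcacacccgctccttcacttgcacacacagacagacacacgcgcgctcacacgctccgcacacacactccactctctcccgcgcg
Atf3: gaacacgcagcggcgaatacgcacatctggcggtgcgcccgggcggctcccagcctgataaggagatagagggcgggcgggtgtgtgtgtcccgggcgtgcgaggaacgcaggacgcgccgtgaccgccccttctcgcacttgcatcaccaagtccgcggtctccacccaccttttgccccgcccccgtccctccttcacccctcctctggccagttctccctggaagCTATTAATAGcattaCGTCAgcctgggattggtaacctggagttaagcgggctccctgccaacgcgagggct

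The CRE is the site of CREB, a factor that cAMP and calcium signals activate. The core TGACG occurred on either strand 4 times in each of the NR4A windows and 1 time in that of Atf3, and in at least 1 window of all 8 members with a sequence, while 23.0% of 27025 genes held it. The full palindrome TGACGTCA, which contains the core, was in 0 members and in 2.03% of genes. The MEF2 site was in 1 of the 8 members with a sequence, Atf3, and in 0.636% of genes. The CArG box, the site of serum response factor, was in 1 of these 8 members, Egr2, and in 1.81% of genes. Arc and Egr1 had no promoter sequence here, so the presence or absence of any site in them was not tested. Sites more than 250 bases before a start site, in any member, were not read either. The EGR site GCGNGGGCG, which is not in capitals above, was in Fosb, Nr4a1 and Nr4a2 and in 6.27% of genes. Neither the NR4A monomer site AAAGGTCA nor the AP-1 site TGAGTCA was in a member, against 1.70% and 5.95% of genes. A match describes the letters of a window and is not a measured binding site.

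The NR4A receptors held the member with the smallest p-value. Nr4a1 (also NUR77, chromosome 15, 101254269 to 101274795 on the plus strand of GRCm38), a receptor that regulates glucose and lipid genes in muscle, was at 195 and 178 CPM in WT 1 and WT 2 and at 126 and 135 CPM in Eko 1 and Eko 2. Both Eko mice lay below both WT mice, and the fold between mice was 1.10 in WT and 1.07 in Eko. The means were 187 ± 12.6 CPM in WT and 131 ± 5.98 CPM in Eko (SD, n = 2), or 70.0% of WT. Its log2 fold change was −0.51 with a standard error of 0.08 and a 95% interval of −0.70 to −0.33, at an adjusted p of 0.0619 by edgeR's quasi-likelihood test. DESeq2 gave an adjusted p of 7.13e-06 and the likelihood ratio test 0.000158 at nearly the same log2 fold change. The quasi-likelihood adjusted p was 0.0137 without WT 2 and 0.0352 without Eko 2, and 0.0750 without WT 1 and 0.0552 without Eko 1. As a bulk measurement, this level cannot tell fewer cells with the transcript apart from less transcript per cell.

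Nr4a2 (NURR1, chromosome 2, 57106830 to 57124003 on the minus strand), a receptor best known from dopamine neurons, was much scarcer. It was at 1.08 and 2.28 CPM in WT 1 and WT 2 and at 0.835 and 0.629 CPM in Eko 1 and Eko 2, from 45 to 184 counts per library. The Eko mice were again below both WT mice, but the WT mice themselves differed 2.11-fold. Mean levels were 1.68 ± 0.845 CPM and 0.732 ± 0.146 CPM (SD, n = 2), with a log2 fold change of −1.19 and a 95% interval of −2.11 to −0.27. The unadjusted p was 0.0182 and the adjusted p 0.324 by edgeR's quasi-likelihood test. Without WT 2, the higher WT mouse, the log2 fold change was −0.54 (adjusted p = 0.595), and without WT 1 it was −1.63 (adjusted p = 0.0815).

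Nr4a3 (NOR1, chromosome 4, 48045153 to 48086447 on the plus strand), a receptor that exercise induces in muscle, varied widely between the mice of each genotype. Its levels were 3.06 and 13.8 CPM in WT 1 and WT 2 and 1.77 and 8.75 CPM in Eko 1 and Eko 2. In each genotype replicate 2 was the higher mouse, by 4.52-fold in WT and 4.93-fold in Eko, and the groups overlapped. The estimate for Eko against WT was a log2 fold change of −0.70 with a 95% interval of −2.62 to 1.23 (adjusted p = 0.789 by edgeR's quasi-likelihood test), an interval that holds both large decreases and large increases. It was −2.25 without Eko 2 and −1.41 without WT 1, but 0.79 without WT 2 and 0.06 without Eko 1. Single mice therefore set its sign in these fits, which did not pair the mice. With same-numbered mice as blocks it was −0.71 (adjusted p = 0.0283 by edgeR's quasi-likelihood test), though the sources state no such pairs.

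On the CPM per kb scale, Nr4a1 accounted for 98.6% and 94.6% of the sum of the 3 NR4A genes in WT and for 98.6% and 96.0% in Eko. Nr4a3 made up 0.904% and 4.32% in WT and 0.812% and 3.65% in Eko, which follows its own spread between mice. The family sum was 56.5 and 53.5 CPM per kb in WT and 36.5 and 40.0 CPM per kb in Eko, and so was nearly that of Nr4a1 alone.

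Arc (chromosome 15, 74669083 to 74672570 on the minus strand), a gene of synapses whose protein forms capsid-like shells, showed the lowest Eko level relative to WT of the 10 genes. It was at 3.86 and 1.90 CPM in WT 1 and WT 2 and at 1.21 and 1.06 CPM in Eko 1 and Eko 2. The Eko mice lay close together, 1.14-fold apart, and below both WT mice, which were 2.03-fold apart. The Eko mean of 1.13 ± 0.102 CPM was 39.4% of the WT mean of 2.88 ± 1.38 CPM (SD, n = 2). The log2 fold change was −1.34 with a standard error of 0.34 and a 95% interval of −2.14 to −0.53, and the adjusted p was 0.226 by edgeR's quasi-likelihood test, from an unadjusted p of 0.00574. The adjusted p was 0.0199 by DESeq2 and 0.0223 by the likelihood ratio test. Without WT 2 the quasi-likelihood adjusted p was 0.00949 at a log2 fold change of −1.75, and without WT 1, the higher WT mouse, it was 0.449 at −0.74.

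**Figure D2:**
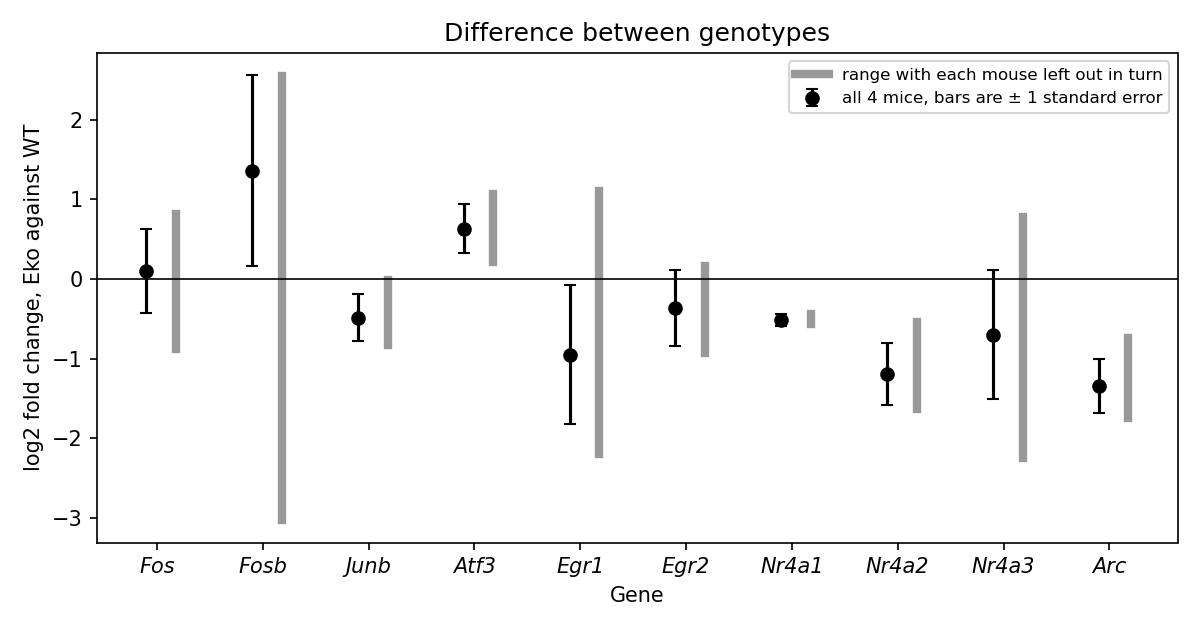
Log2 fold change of each early gene, Eko against WT, as black points with bars of 1 standard error over all 4 mice, and in grey the range obtained when each mouse was left out in turn. The grey ranges of Nr4a1, Nr4a2, Arc, Junb and Atf3 stay on one side of 0, whereas those of Fos, Fosb, Egr1, Egr2 and Nr4a3 cross it.

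Among the AP-1 genes, Fos (chromosome 12, 85473890 to 85477273 on the plus strand), the prototype of the early response, was at 7.64 and 3.33 CPM in WT 1 and WT 2 and at 8.70 and 2.94 CPM in Eko 1 and Eko 2. The mice of each genotype spanned nearly the same range. The WT mean was 5.48 ± 3.05 CPM and the Eko mean 5.82 ± 4.08 CPM (SD, n = 2), with a log2 fold change of 0.10 and a 95% interval of −1.15 to 1.35 (adjusted p = 0.963 by edgeR's quasi-likelihood test). It was −0.88 without Eko 1 and −0.37 without WT 2, but 0.67 without Eko 2 and 0.82 without WT 1.

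Fosb (chromosome 7, 19302696 to 19310051 on the minus strand), whose truncated product builds up with repeated stimulation in neurons, had the widest spread of the 10 genes between the Eko mice. Its counts were 84 and 25 in WT 1 and WT 2 and 301 and 6 in Eko 1 and Eko 2, or 1.11, 0.309, 3.49 and 0.0839 CPM. The Eko mice were 41.6-fold apart and enclosed both WT mice, which were 3.58-fold apart. Of all genes tested, 45 had a larger fold between the Eko mice, and all but 1 of these had a mouse at 0 counts. Fitted over all 4 mice, the log2 fold change was 1.36 with a 95% interval of −1.48 to 4.21 (adjusted p = 0.709 by edgeR's quasi-likelihood test). Without Eko 2 it was 2.31 at an adjusted p of 0.0295, without Eko 1 it was −3.03, without WT 1 it was 2.55 and without WT 2 it was 0.73, so single mice set the sign and the call of Fosb.

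Junb (chromosome 8, 84974484 to 84978718 on the minus strand), a JUN protein that helps to maintain muscle mass, was at 9.80 and 5.54 CPM in WT 1 and WT 2 and at 6.58 and 4.35 CPM in Eko 1 and Eko 2. Eko 1 lay between the WT mice and Eko 2 below them. The mean was 7.67 ± 3.02 CPM in WT and 5.46 ± 1.58 CPM in Eko (SD, n = 2), with a log2 fold change of −0.48 and a 95% interval of −1.18 to 0.21 (adjusted p = 0.576 by edgeR's quasi-likelihood test). The difference was −0.02 without WT 1 (adjusted p = 0.993) and −0.22 without Eko 2, against −0.80 without Eko 1 and −0.82 without WT 2. Junb overlaps Prdx2 on the other strand, and the sources do not state whether counting used strand.

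Atf3 (chromosome 1, 191170296 to 191218039 on the minus strand), a stress-induced factor that can pair with JUN proteins and represses inflammatory genes, was at 2.42 and 4.07 CPM in WT 1 and WT 2 and at 3.78 and 6.35 CPM in Eko 1 and Eko 2. It was the one member besides Fos and Fosb with a higher mean in Eko mice, but Eko 1 lay between the WT mice. The means were 3.25 ± 1.16 CPM in WT and 5.06 ± 1.81 CPM in Eko (SD, n = 2). The log2 fold change was 0.63 with a 95% interval of −0.10 to 1.37 and an adjusted p of 0.492 by edgeR's quasi-likelihood test. Without Eko 1 it was 0.98 at an adjusted p of 0.0382, and without WT 2 it was 1.07 at 0.135. Without Eko 2 it was 0.22 at an adjusted p of 0.914, and without WT 1 it was 0.31 at 0.803. Atf3 overlaps the small RNA gene Gm24748 on the other strand.

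Beside their relatives on the CPM per kb scale, Fos was a major and Junb a minor member of its family. Fos made up 61.8% and 41.4% of the summed FOS family (Fos, Fosb, Fosl1 and Fosl2) in WT 1 and WT 2 and 60.6% and 40.8% in Eko 1 and Eko 2, and Fosl2 held most of the remainder. Junb made up 9.36% and 4.60% of the JUN family in WT and 4.77% and 3.39% in Eko. Jun made up between 62.5% and 68.8% of that family, and it was at 90.8 and 109 CPM in WT and at 131 and 122 CPM in Eko. Jun was higher in both Eko mice, opposite to Junb in the sign of its log2 fold change of 0.34 ± 0.10 (SE), and was not called (unadjusted p = 0.0115, adjusted p = 0.283 by edgeR's quasi-likelihood test).

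Egr1, a zinc finger factor induced by growth factors and contraction, was at 22.2 and 2.99 CPM in WT 1 and WT 2 and at 10.1 and 2.70 CPM in Eko 1 and Eko 2. WT 1 exceeded WT 2 by 7.40-fold and Eko 1 exceeded Eko 2 by 3.76-fold, so the groups overlapped. The spread was close to or above the mean, at 12.6 ± 13.5 CPM in WT and 6.42 ± 5.27 CPM in Eko (SD, n = 2). The log2 fold change of −0.95 had a 95% interval of −3.03 to 1.12 (adjusted p = 0.722 by edgeR's quasi-likelihood test) and became 1.11 without WT 1, −0.31 without Eko 2, −1.76 without WT 2 and −2.20 without Eko 1.

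Egr2 (KROX20, chromosome 10, 67535475 to 67542188 on the plus strand), the master regulator of myelinating Schwann cells, had 22 to 59 counts per library. It was at 0.778 and 0.408 CPM in WT 1 and WT 2 and at 0.603 and 0.308 CPM in Eko 1 and Eko 2, and the groups overlapped. Its log2 fold change was −0.36 with a 95% interval of −1.49 to 0.77 (adjusted p = 0.817 by edgeR's quasi-likelihood test), and it became 0.17 without WT 1, 0.03 without Eko 2, −0.74 without WT 2 and −0.92 without Eko 1. Summed Schwann cell markers, which are more abundant, were at 23.2 and 25.8 CPM in WT and at 28.6 and 34.7 CPM in Eko, and their part in the Egr2 level was not tested. On the CPM per kb scale, Egr1 made up 83.0% to 93.7% of the sum of Egr1, Egr2 and Egr3 in the 4 mice.

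The spread between mice of a genotype was compared with that of all genes tested, as a description. The median fold between the WT mice was 2.07 over the 10 members and 1.11 over all genes tested, and between the Eko mice 1.82 and 1.10. The WT mice, 1 of them WT 1, differed at least 2-fold in 6 members, against 4.71% of genes tested, and the Eko mice did so in 4 members, against 5.63%. Fos, Fosb, Egr1 and Nr4a3 did so in both genotypes, 4 of 10 members, against 1.59% of genes tested. Members were named for a shared stimulus, so they are not independent of each other.

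**Figure D3:**
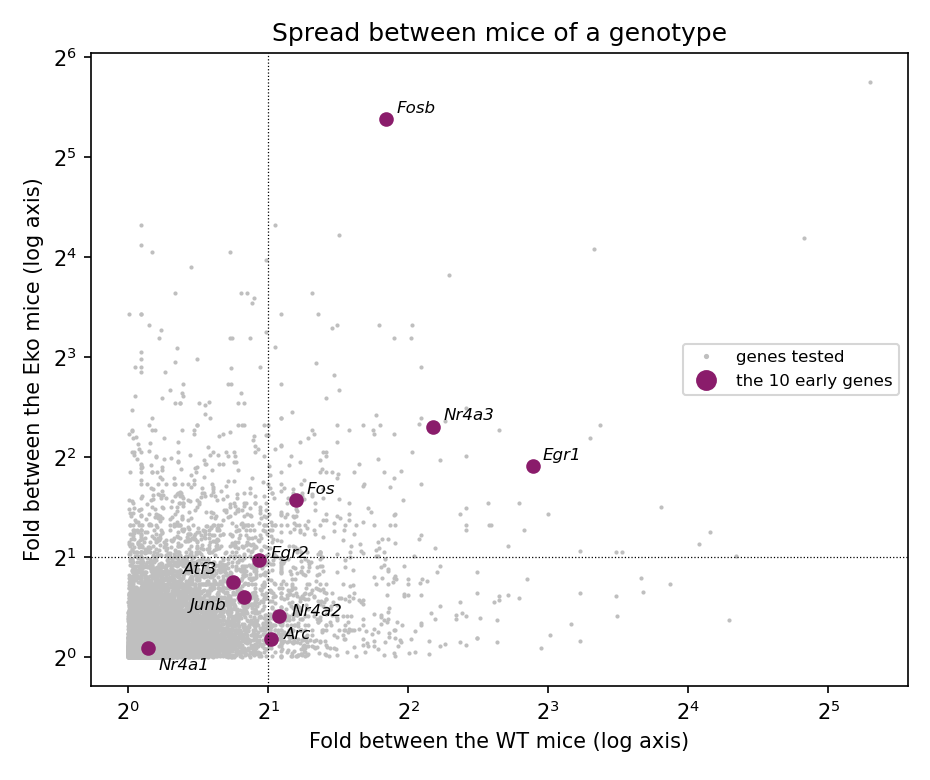
Fold between the Eko mice against fold between the WT mice, both on log axes, with genes tested in grey, the 10 early genes in purple and dotted lines at 2-fold. Fosb, Egr1, Nr4a3 and Fos lie above and to the right of both lines and Nr4a1 near the corner; 67 genes with a mouse at 0 counts are left out.

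The same mice were not high for all members. Fos, Fosb, Junb, Egr1, Egr2 and Arc were higher in WT 1 than in WT 2 and in Eko 1 than in Eko 2, as were 28.7% of genes tested, while Atf3 and Nr4a3 were lower in WT 1 and in Eko 1, as were 27.5%. The replicate numbers name the mice, and the sources do not state whether same-numbered mice form pairs. Summed adipocyte markers had the order of the former genes, at 31.6 and 13.8 CPM in WT 1 and WT 2 and 17.2 and 5.44 CPM in Eko 1 and Eko 2, and 3 of the 4 markers differed at least 2-fold between the WT mice and 4 of 4 between the Eko mice. Summed macrophage markers had that order too, at 24.4 and 19.3 CPM in WT 1 and WT 2 and 19.1 and 13.9 CPM in Eko 1 and Eko 2. So did the scarce neutrophil markers, at 0.553 and 0.185 CPM in WT and 0.162 and 0.112 CPM in Eko. The part of these cell types in the levels of the early genes was not tested.

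Between genotypes, the fitted log2 fold change was below 0 in 7 members and above 0 in 3, and 51.3% of all genes tested were below 0. The median was −0.50 over the members and −0.01 over all genes tested. Both the sign count and the median rested on WT 1: without it, 5 members were below 0 and 5 above, and the median was 0.08, against 0.00 over the genes tested there. Without Eko 1 the median was −0.90 and without Eko 2 it was −0.26. Summed macrophage markers, cells that express Egr and Nr4a genes on activation, were at 24.4 and 19.3 CPM in WT and 19.1 and 13.9 CPM in Eko. All 5 macrophage markers had a log2 fold change below 0, between −0.77 and −0.18, and 0 were called by edgeR's quasi-likelihood test, with 3 at an unadjusted p below 0.05. Adipocyte markers had a median log2 fold change of −1.14, with 3 of 4 below 0 and 1, Lep, above 0 at 0.21. Adipoq and Cidec were at an unadjusted p below 0.05, although their groups overlapped. Among 8 muscle fibre markers, 4 lay below 0 and 4 above, and Mb at −0.50, Myh2 at −0.51 and Myh1 at −0.44, which are myoglobin and myosin heavy chains, were lower in both Eko mice at an unadjusted p below 0.05. The 3 satellite cell, 4 Schwann cell and 4 smooth muscle and pericyte markers all lay above 0. Of these, 2 Schwann cell and 2 smooth muscle and pericyte markers had an unadjusted p below 0.05. Endothelial markers lay 3 below 0 and 3 above, fibroblast markers 3 below and 1 above, and the 1 neutrophil marker tested below. None of these markers was called by edgeR's quasi-likelihood test. The part of these cell types and fibre genes in the Nr4a1, Nr4a2 and Arc differences was not tested. The transcripts of 8 of the 10 members were above the median GC content of 49.6%, and log2 fold changes over all genes had a rank correlation of −0.21 with GC content. With offsets for GC content, the log2 fold change of Nr4a1 was −0.45 at an adjusted p of 0.0922.

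Other genes of the pathway were read from 3 lists. Of 12 relatives and partners of the members, 11 were tested and 0 were called by edgeR's quasi-likelihood test, with 7 below 0, 4 above 0 and a median log2 fold change of −0.02; only Jun had an unadjusted p below 0.05. Of 40 other early response genes, 38 were tested and 0 were called, with 24 below 0, 14 above 0 and a median of −0.07, and 3 had an unadjusted p below 0.05. Egr4, Npas4 and Ptgs2 did not pass the filter. DESeq2 and the likelihood ratio test each called 1 gene of these lists, Sik1, and limma-voom called 0.

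Sik1, a CREB-induced kinase that restrains CREB and class II histone deacetylases, had the lowest adjusted p of these lists. It was at 15.3 and 19.9 CPM in WT 1 and WT 2 and at 10.1 and 10.4 CPM in Eko 1 and Eko 2, so both Eko mice lay below both WT mice. Its log2 fold change was −0.78 ± 0.13 (SE) at an adjusted p of 0.0923 by edgeR's quasi-likelihood test. The other genes at the low end of these lists were Egr3, a factor of muscle spindles, at −0.99 ± 0.82, Nfil3, a clock repressor, at −0.53 ± 0.25, and Maff, a small MAF factor, at −0.45 ± 0.21 (log2, SE). At the high end, beside Jun, were Myc at 0.58 ± 0.32, the kinase Plk2 at 0.38 ± 0.13 and the antiproliferative gene Btg2 at 0.25 ± 0.09. None of these was called, with adjusted p-values from 0.348 to 0.692 for these 6 genes.

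**Figure D4:**
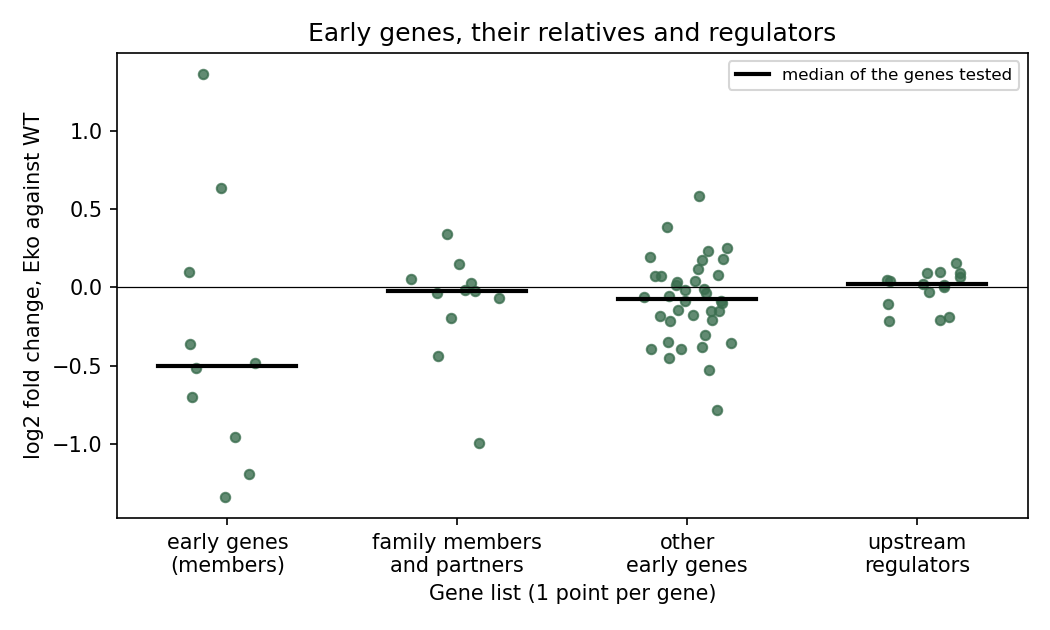
Log2 fold change, Eko against WT, of each gene tested in 4 lists (the early genes, their family members and partners, other early genes and upstream regulators), with 1 point per gene and a bar at the median. The early genes spread most widely, from −1.34 to 1.36, around a median of −0.50, and the other 3 medians lie within 0.1 of 0.

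The upstream factors themselves were tested in 15 of 16 genes, with 0 called by edgeR's quasi-likelihood test, 0 at an unadjusted p below 0.05, and a median log2 fold change of 0.02. Srf, the serum response factor that drives Fos and Egr1, was at 120 and 101 CPM in WT and at 96.9 and 94.0 CPM in Eko, with a log2 fold change of −0.22 ± 0.09 (SE, adjusted p = 0.437). Mef2a was at 0.09 ± 0.07, Mef2c at 0.00 ± 0.07 and Mef2d at 0.02 ± 0.08 (log2, SE), all within 0.1 of no difference. Mef2b, with 0 to 10 counts per library, did not pass the filter.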

How the data were processed

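Quadriceps polyA RNA of 2 WT and 2 Mef2dα2 Eko mice, grouped by their labels, was made into stranded libraries. The authors aligned reads to mm10, with STAR 2.6.1a named in the submitters' processing notes, and deposited RSEM expected counts per gene, without normalization, with the Ensembl GRCm38 annotation. The strand setting and any rounding are not given in the sources used here. All deposited expected counts were whole numbers, so rounding for edgeR changed 0 values.

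Counts of 72626757 to 85176059 per library were tested in R 4.3.3 with edgeR 4.0.16 (TMM normalization, default filter on low counts, quasi-likelihood test, Benjamini-Hochberg adjustment over all 16120 genes tested). Standard errors were derived from the F statistics. Positions, exon lengths and GC content were taken from GENCODE M21 on GRCm38, and promoters from RefSeq GRCm38.p6. No pair of libraries agreed within counting noise, and WT 1 differed most from the others. The scripts were tested on simulated data.

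Alternatives were RLE and upper-quartile normalization, no filter, at least 1 CPM in 2 libraries, DESeq2 1.42.0 with and without independent filtering, edgeR's likelihood ratio test, limma-voom (limma 3.58.1), a replicate block, GC offsets, both together, and each mouse left out. With a mouse left out, the lone mouse of a genotype is assumed to vary like the others. Named were all 10 members and, of the relatives and other early genes, those called or otherwise the 4 lowest and the 4 highest log2 fold changes, plus Srf and the MEF2 genes. The members and lists were chosen with earlier results of these data known. Marker lists were used for muscle fibre, endothelial, macrophage, neutrophil, fibroblast, adipocyte, satellite, Schwann and smooth muscle cells.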

Additional observations from a re-analysis of the deposited data

How the results depend on the processing

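Of all genes tested, 67 were called, 50 of them lower in Eko, with 0 of the 10 early genes and 0 of their listed relatives, other early genes and regulators. RLE (58), upper-quartile normalization (64) and limma-voom (57) gave like counts and 0 members. With no filter on low counts 799 of 24621 genes were called, with 8 members and 6 listed genes, and edgeR's prior degrees of freedom were infinite against 4.88 with the filter. At least 1 CPM in 2 libraries left 23 genes, 0 members and no test of Egr2, and GC offsets left 38 genes and 0 members. DESeq2 called 325 genes with independent filtering and 309 without, and the likelihood ratio test 312, each with 2 members, Arc and Nr4a1, and 1 listed gene, Sik1. The cause of these differences was not tested.

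With each mouse left out in turn, 99 to 299 genes, 0 to 2 members and 1 to 3 listed genes were called. The log2 fold change then lay between −0.88 and 0.82 for Fos, −3.03 and 2.55 for Fosb, −2.20 and 1.11 for Egr1, −0.92 and 0.17 for Egr2, and −2.25 and 0.79 for Nr4a3, the 5 members that reversed. Nr4a1 (−0.57 to −0.44), Arc (−1.75 to −0.74), Nr4a2 (−1.63 to −0.54), Junb (−0.82 to −0.02) and Atf3 (0.22 to 1.07) kept their sign in every alternative run. Nr4a1 passed the threshold in 8 of 15 alternatives and Arc in 5.

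The replicate numbers come from the labels. Deviations of same-numbered mice from their genotype means correlated at 0.0909 over genes, and the labels name no shared litter or batch. Same-numbered mice carry adjacent mouse numbers in the deposited column names. The study calls the mice littermates without saying which shared a litter, so the numbers were not taken to pair them in the main fit. With a replicate block 186 genes were called, with 2 members, Nr4a1 and Nr4a3, and 2 listed genes, Nfil3 and Sik1, and with the replicate block and GC offsets 238 genes, the same 2 members and 2 listed genes. Nr4a3, at 1.77 against 3.06 CPM in the mice numbered 1 and 8.75 against 13.8 CPM in those numbered 2 (Eko against WT), was at −0.71 on the log2 scale in the replicate block fit (adjusted p = 0.0283). As for depth, 9 members had at least 22 counts in every library, and Fosb had 6 in Eko 2.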

Other observations

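Among the 38 other early genes tested, the fold between mice was at least 2 in 4 for WT and in 1 for Eko, where 4.71% and 5.63% of all genes tested were. The WT cases included Cebpd, a factor of inflammation and fat cells, at 21.6 and 5.92 CPM in WT 1 and WT 2, with both Eko mice between them. Klf4, a zinc finger factor of endothelium and macrophages, ran the other way in WT, at 10.7 and 21.6 CPM, with 14.6 and 18.0 CPM in Eko. These 2 genes were chosen after their values were seen.

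Over the 4 mice, the mean profile of the members, centred on its mean in log2(CPM + 0.1), was 0.42 and −0.02 in WT 1 and WT 2 and 0.13 and −0.53 in Eko 1 and Eko 2. The 5 genes tested outside the lists with the nearest profile were 4633401B06Rik, Gm26853, Arhgap45, Kcnj5 and Gsta3, at Euclidean distances of 0.0189 to 0.0700. With 4 mice and 16120 genes, near profiles are easy to find, and these are a description only.

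Summed markers of endothelial cells (126 to 145 CPM), fibroblasts (223 to 299 CPM), satellite cells (3.33 to 4.85 CPM) and smooth muscle cells (263 to 325 CPM) held no called gene. Neutrophil markers summed to 0.553 CPM or less in each mouse, and 3 of the 4 did not pass the filter.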
